A study of Homo sapiens with 18 samples.

Results

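Adavivint was tested in THP-1 cells that overexpressed S100A9, with 3 treated libraries set against 3 untreated libraries of the same overexpressing cells. These 6 libraries were chosen by their sample labels alone and are 6 of the 18 RNA-seq libraries in the series. THP-1 is a human monocytic line from an acute myeloid leukaemia. The treated cells carried the S100A9 lentivirus, had been selected with puromycin at 2 µg/mL for at least 24 hours and were exposed to 1 µM Adavivint for 36 hours. The untreated cells carried the same lentivirus and had the same selection, without Adavivint. Treated and untreated cells with an empty lentiviral vector, 3 libraries each, served to ask whether a response differed between vectors. Per the labels, all of these cells grew in RPMI 1640 medium. The labels name no vehicle, and none of them says that the replicates were separate cultures, so the p-values below speak of the spread among these libraries and part of that spread may be technical. A comparison of the overexpressing cells with and without Adavivint speaks of the compound in 1 transduced line, since both groups carry the vector and the selection.

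Adavivint, also known as lorecivivint, is a small molecule that blocks the kinases CLK2 and DYRK1A, and was developed against Wnt signalling. CLK kinases phosphorylate SR proteins, the splicing factors that help to define exons, and their inhibition changes splicing and the cutting of transcripts at their 3′ ends. In Wnt signalling, beta-catenin escapes a destruction complex built on APC and AXIN, enters the nucleus and activates targets through TCF and LEF factors. S100A9 pairs with S100A8 to form calprotectin, an abundant calcium-binding protein of monocytes and neutrophils that can signal through TLR4, RAGE and CD33.

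Total counts were 38433169, 40141080 and 45288579 in treated libraries and 49991302, 84409062 and 62313488 in untreated libraries. Levels are given as CPM, the count of a gene per 1000000 counts of its library, on library sizes scaled by the trimmed mean of M-values. A principal component that held 89.6% of the variance among the 12 THP-1 libraries separated treated from untreated libraries of both vectors, and no library of the overexpressing cells stood apart from its group. The untreated empty-vector libraries were less even. On the second component (2.2% of the variance) they lay at 40.34, 23.44 and 9.28, against -24.97, -23.83 and -25.09 for untreated overexpressing libraries. Differences between vectors, given further on, rest in part on that uneven group. More genes had at least 1 CPM in treated libraries (13016 to 13077) than in untreated libraries (12184 to 12215). Counts are shares of each library, so a change of total RNA per cell was not measured, and in bulk samples fewer cells of a type cannot be told apart from less RNA per cell.

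S100A9 (chromosome 1, 153357854 to 153361027, plus strand, GRCh38), the overexpressed gene, had 103, 113 and 105 CPM in treated cells, against 29.1, 28.8 and 26.3 CPM in untreated overexpressing cells. The groups did not overlap. Its level was 3.80-fold higher (log2 fold change 1.93, SE 0.19, adjusted p = 2.48e-07 by edgeR's quasi-likelihood test with Benjamini-Hochberg adjustment, as for every adjusted p below). In empty-vector cells S100A9 had 15, 14 and 12.8 CPM with Adavivint, against 9.38, 3.85 and 5.91 CPM without it, and the log2 changes with the 2 vectors differed by 0.81 (edgeR adjusted p = 0.0548). That difference did not pass the threshold of 0.05. In 12 fits that each left out 1 library it ranged over 0.42 to 1.07 and passed in 1 of them. That fit left out replicate 2 of the untreated empty-vector cells (1.07, edgeR adjusted p = 0.00485). The counts do not tell vector transcripts from the cells' own S100A9 transcripts.

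S100A8, its partner, had 5.89, 6.1 and 4.75 CPM in treated cells, against 0.272, 0.625 and 0.301 CPM in untreated cells. It was 13.4-fold higher (log2 3.74, SE 0.29, edgeR adjusted p = 1.84e-08), from 86 counts in all untreated libraries together. Of 13 S100 genes tested, 5 were higher, 4 were lower and 4 did not pass the test. S100A1 was lower, at 1.12, 0.441 and 0.432 CPM in treated cells, against 3.74, 4.85 and 4.56 CPM in untreated cells.

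Both groups expressed SPI1 and CSF1R, and the monocyte marker list, described further on, moved both ways. SPI1 and CSF1R were picked from a longer set of myeloid markers after their values were seen. Others in that set moved more. CD14 was 61.9-fold higher in treated cells, from a mean of 0.356 CPM in untreated cells, LYZ was 2.19-fold higher and CD33 was 3.91-fold lower. SPI1, the transcription factor PU.1 of myeloid cells, had 130, 128 and 128 CPM in treated cells, against 103, 99 and 104 CPM in untreated cells. CSF1R, the receptor for macrophage colony-stimulating factor, had 14.3, 14.6 and 13.3 CPM in treated cells, against 15.6, 14.6 and 14.5 CPM in untreated cells, and its groups overlapped (log2 -0.08, SE 0.11, edgeR adjusted p = 0.491). Markers of other cell types were low. Summed erythroid markers had 1.91 to 2.83 CPM in treated cells and 1.74 to 1.94 CPM in untreated cells. Stromal markers had 1.15 to 1.34 CPM in treated cells and 1.14 to 1.44 CPM in untreated cells, with COL3A1 at 0 counts. Megakaryocyte markers had 5.86 to 7.31 CPM in treated cells and 4.64 to 4.90 CPM in untreated cells, with PPBP and GP9 at 0. Epithelial markers had 7.14 to 8.41 CPM in treated cells and 9.88 to 11.3 CPM in untreated cells, mostly KRT17, with KRT19 at 0. Lymphoid markers had 56.4 to 62.4 CPM in treated cells and 88.6 to 97.1 CPM in untreated cells, mostly the granule gene NKG7, while MS4A1, which encodes CD20, was at 0. The part of such cells in the results below was not tested.

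Adavivint changed most of the transcriptome. Of 15403 genes tested, 6692 (43.4%) were higher and 6356 (41.3%) lower in treated cells at an adjusted p below 0.05, together 84.7%. With a change of at least 2-fold, 3904 (25.3%) were higher and 3516 (22.8%) lower, together 48.2%. The 6 libraries did not overlap for 87.5% of genes. The median log2 fold change over all genes was 0.04 (0.10 with DESeq2 size factors and -0.03 with library totals). Since so many genes passed, the counts for gene groups below are to be read against these shares.

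The higher and the lower genes differed in size. Changes of at least 8-fold were found for 1574 higher and 459 lower genes, and changes of at least 64-fold for 587 higher and 30 lower genes. The large increases were in genes that untreated cells hardly expressed: among 1139 tested genes below 0.1 CPM in untreated cells, the median log2 fold change was 5.63, and among 6983 genes between 10 and 100 CPM it was -0.20. Genes at low levels pass a filter on counts through the group in which they are high, so the first of these medians had to be positive. Genes that were at least 2-fold higher held 19.6 to 20% of all counts in treated libraries and 7.08 to 7.26% in untreated libraries. Genes that were at least 2-fold lower held 7.14 to 7.34% of counts in treated libraries and 24.1 to 24.2% in untreated libraries.

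**Figure D1:**
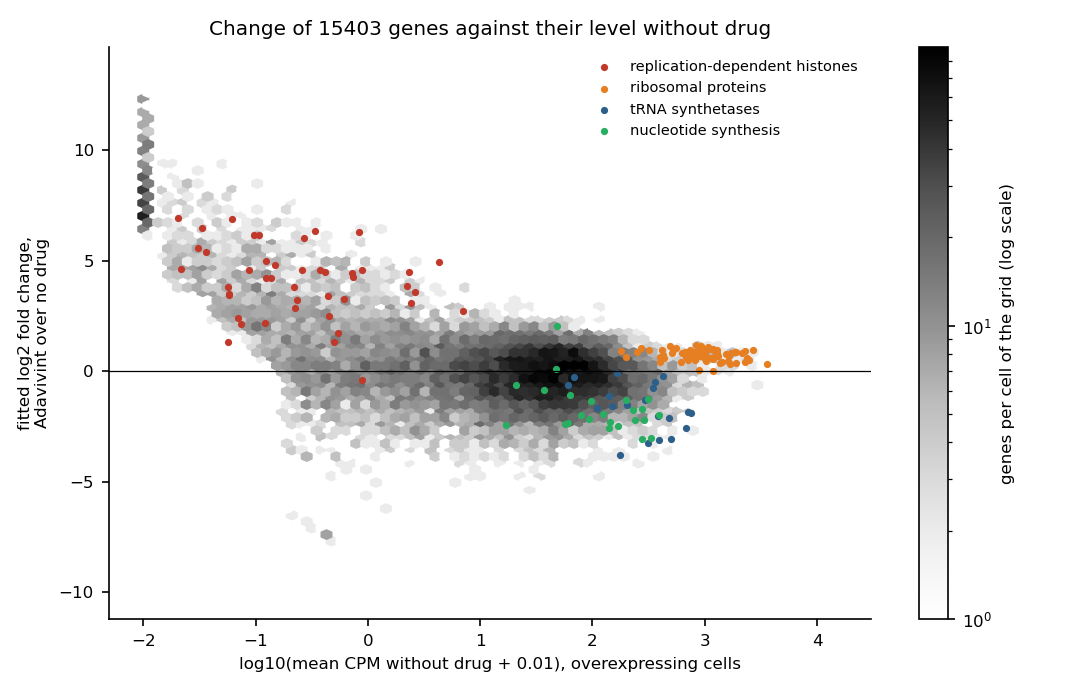
Fitted log2 fold change of 15403 genes, Adavivint-treated over untreated S100A9-overexpressing THP-1 cells (vertical axis), against log10 of the mean CPM in untreated cells plus 0.01 (horizontal axis). Grey shading gives the number of genes, and coloured points are members of 4 gene lists. Genes below 0.1 CPM in untreated cells lie at the upper left, with a median of 5.63, and fitted values of genes at 0 counts there depend on how 0 is treated.

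The largest changes were taken among genes that passed the test without overlap between the 6 libraries and had a mean of at least 5 CPM in a group. Genes without a symbol, or with a clone, locus, open-reading-frame or readthrough name, were left out. Ranking was by fitted log2 change, which favours genes at 0 counts. The 15 with the largest increases all had 0 counts in the 3 untreated libraries and means of 7.24 to 28.1 CPM in treated libraries. ITGA8, an integrin alpha subunit (chromosome 10, 15513949 to 15720125, minus strand), had 29.2, 26.3 and 28.8 CPM in treated cells, against 0 counts in untreated cells. With a floor of 3 counts over the untreated libraries this is at least 1860-fold higher. PRLHR, the receptor of prolactin-releasing peptide, had 15.8, 16.2 and 15.5 CPM and was at least 1051-fold higher. MMP13, a collagenase, FBLN5, an elastic-fibre protein, SLC17A8, a vesicular glutamate transporter, and FOXI1, a forkhead transcription factor, were also among them.

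Under the same limits, the 15 genes with the largest decreases had 8 to 613 counts in treated cells and means of 6.14 to 213 CPM in untreated cells. TIFAB had 0, 0 and 0.182 CPM in treated cells, against 6.5, 5.77 and 6.16 CPM in untreated cells, so its 8 treated counts were in 1 library. NREP was the most abundant of them, with 4.51, 5.37 and 5.39 CPM in treated cells, against 203, 218 and 220 CPM in untreated cells (log2 -5.39, SE 0.13, edgeR adjusted p = 1.19e-13). FYB1, an adaptor of haematopoietic cells, had 1.68, 2.28 and 1.86 CPM in treated cells, against 76.5, 87.4 and 89.2 CPM in untreated cells. RGS18, a regulator of G protein signalling in blood cells, fell 58.7-fold, to 0.987, 1.4 and 1.07 CPM in treated cells, against 59.4, 70.3 and 73.2 CPM in untreated cells. CXCL10, an interferon-induced chemokine, had 0.827, 0.804 and 0.682 CPM in treated cells, against 28.3, 30.1 and 30.3 CPM in untreated cells. NOG, SPATA12, ZMAT1 and AGTRAP were also among the 15.

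**Figure D2:**
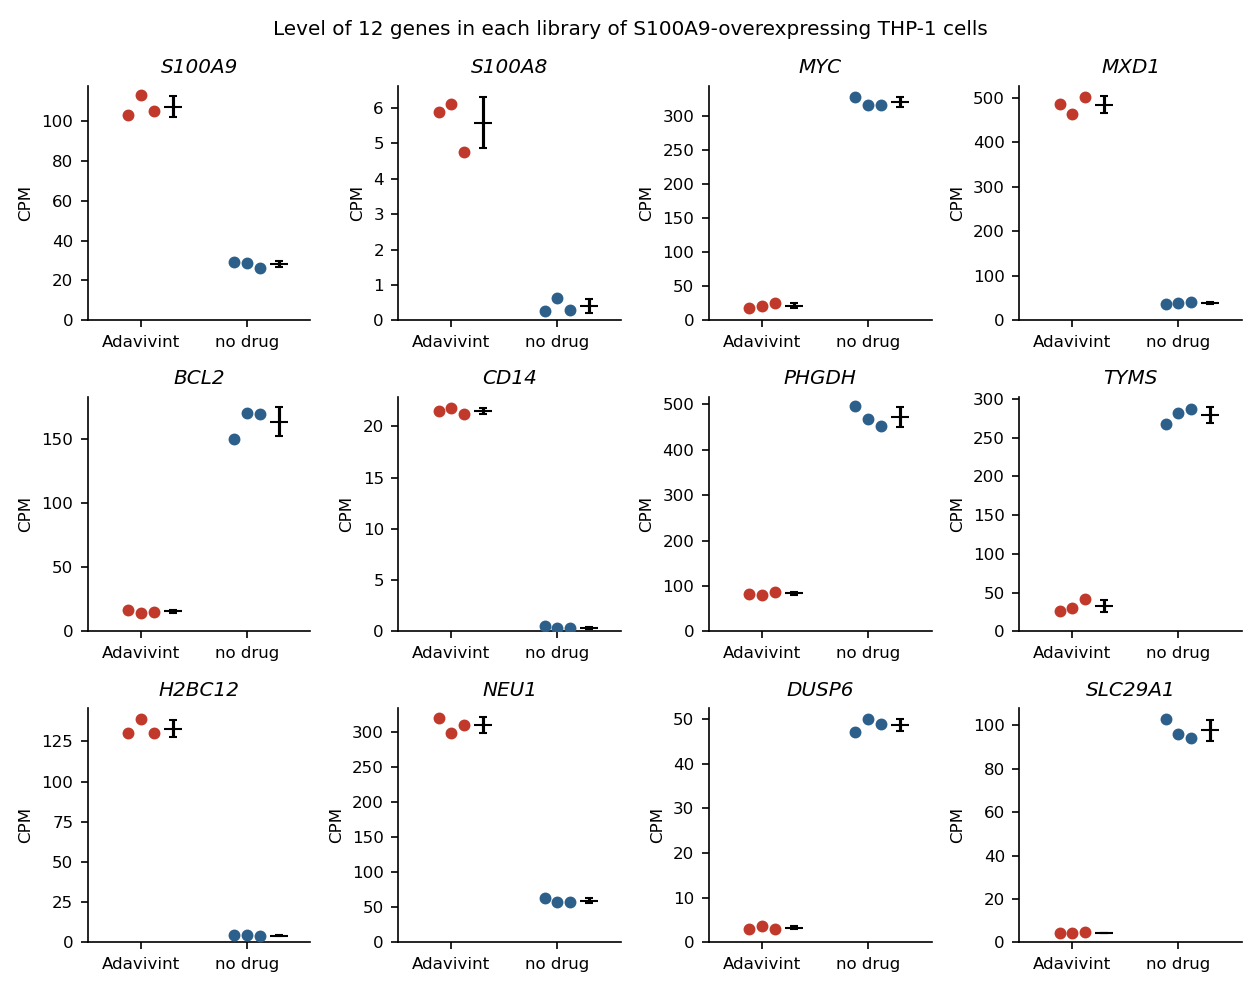
CPM of 12 genes in each library (points, linear axis from 0), treated left of untreated, with the mean and SD of 3 libraries beside them. The groups do not overlap in any panel, as for MYC at 17.9 to 25.1 CPM in treated cells and 316 to 329 CPM in untreated cells.

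Of the CLK family, CLK1, CLK3 and CLK4 were higher in treated cells, and CLK2, a named target of the compound, did not pass the test. CLK1 had 175, 182 and 176 CPM in treated cells, against 63.9, 72.6 and 72.6 CPM in untreated cells, 2.55-fold higher. CLK3 had 297, 298 and 298 CPM in treated cells, against 115, 106 and 98.6 CPM in untreated cells, 2.80-fold higher. CLK4 had 63.3, 62.6 and 62.8 CPM in treated cells, against 24.3, 24.3 and 24 CPM in untreated cells, 2.60-fold higher. Those 3 kinases did not overlap between groups. CLK2 had 77.5, 75.8 and 79.6 CPM in treated cells, against 83, 78.7 and 74.3 CPM in untreated cells, and the groups overlapped (log2 -0.02, SE 0.07, edgeR adjusted p = 0.819).

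DYRK1A, the other named target, had 260, 253 and 268 CPM in treated cells, against 111, 115 and 116 CPM in untreated cells (2.28-fold higher, edgeR adjusted p = 5.71e-12). Its close relative DYRK1B was near 2 CPM in both groups and overlapped (log2 0.18, edgeR adjusted p = 0.468). DYRK4 was 3.13-fold higher, and DYRK3 and SRPK3, an SR protein kinase, were 2.20-fold and 2.63-fold lower. Of 15 CLK, DYRK, HIPK and SRPK kinases tested, 9 were higher, 4 were lower and 2 did not pass, with a median log2 change of 0.46.

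Of 14 SR splicing factors, 9 were higher and 3 lower, with a median log2 change of 0.39. SRSF4 had 297, 292 and 308 CPM in treated cells, against 129, 136 and 134 CPM in untreated cells. SRSF7 moved the other way, with 63.9, 62 and 58.3 CPM in treated cells, against 239, 258 and 252 CPM in untreated cells (4.07-fold lower, edgeR adjusted p = 3.99e-13). Of 27 hnRNP genes, which encode RNA-binding proteins that often oppose SR proteins, 10 were higher and 13 lower. Their median was -0.05 and turned to 0.01 with DESeq2 size factors. HNRNPD and HNRNPAB were 3.83-fold and 3.61-fold lower, and HNRNPA2B1 was 1.53-fold higher. Of 38 core spliceosome genes, 18 were higher and 14 lower, a split close to that of all genes. PRPF3, of the U4/U6 snRNP, was 2.53-fold higher, and EFTUD2, the U5 GTPase, was 3.5-fold lower.

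Components of Wnt signalling moved both ways, much as all genes did (43.4% higher and 41.3% lower). Of 37 tested, 16 were higher, 15 were lower and 6 did not pass. Their median log2 change was 0.01 and turned to -0.06 with library totals. APC, the scaffold of the destruction complex, was the largest increase, with 406, 404 and 430 CPM in treated cells, against 43.5, 46 and 47 CPM in untreated cells (9.08-fold, log2 3.18, SE 0.05, edgeR adjusted p = 8.04e-15). CTNNB1, which encodes beta-catenin, had 382, 410 and 408 CPM in treated cells, against 262, 270 and 261 CPM in untreated cells, 1.51-fold higher. LRP5, a Wnt co-receptor, had 3.89, 2.39 and 2.95 CPM in treated cells, against 38.5, 30.8 and 32.5 CPM in untreated cells, 11-fold lower. BCL9, a beta-catenin co-activator, was 5.23-fold lower, and PORCN, the acyltransferase that lets Wnt ligands be secreted, was 2.85-fold lower.

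Of 15 Wnt targets tested, 4 were higher and 8 lower, with a median log2 change of -0.85. AXIN2, a widely used Wnt target, had 0.453, 0.337 and 0.545 CPM in treated cells, against 0.389, 0.413 and 0.634 CPM in untreated cells. These rest on 54 and 95 counts in all, and no difference was detectable at this depth (log2 -0.10, SE 0.42, edgeR adjusted p = 0.834). EPHB3, TNFRSF19 and NKD2 were 12.1-fold, 8.57-fold and 5.34-fold lower. JUN was 2.46-fold higher, and RNF43, which removes Wnt receptors, was 9.88-fold higher from 50 untreated counts. LGR5 had 463 counts in treated cells and 4 counts in untreated cells.

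MYC, a target of Wnt and many other pathways that drives growth, had 17.9, 21.5 and 25.1 CPM in treated cells, against 329, 317 and 316 CPM in untreated cells. It was 14.9-fold lower (log2 -3.90, SE 0.11, edgeR adjusted p = 4.33e-13). MXD1, MXD4 and MXI1, which oppose it within the MAX network, rose. MXD1 had 487, 464 and 502 CPM in treated cells, against 36, 39.3 and 40.7 CPM in untreated cells, 12.5-fold higher (edgeR adjusted p = 8.84e-15). MXD4 had 117, 112 and 116 CPM in treated cells, against 20.5, 20.7 and 19.7 CPM in untreated cells, and MXI1 was 1.53-fold higher. MNT, another antagonist, was 2.04-fold lower. All 11 tested members of the network passed the test, 7 higher and 4 lower, where 84.7% of all genes passed.

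Genes for transcription elongation were mostly higher: 18 of 25 were higher, 6 were lower and the median log2 change was 0.70. CCNT1, the cyclin of the elongation kinase P-TEFb, had 247, 248 and 263 CPM in treated cells, against 69.7, 77.4 and 78.9 CPM in untreated cells, 3.35-fold higher. HEXIM1, which inhibits that kinase, had 129, 135 and 127 CPM in treated cells, against 50.5, 56.4 and 55.2 CPM in untreated cells. AFF1, a scaffold of the super elongation complex and a fusion partner in leukaemia, had 63.6, 58.5 and 63.3 CPM in treated cells, against 226, 241 and 239 CPM in untreated cells, 3.81-fold lower. Of 23 genes for cleavage, polyadenylation and termination, 9 were higher and 9 lower, and the median was 0.0 (-0.06 with library totals). RBBP6 and WDR33 were 3.58-fold and 2.78-fold higher. CPSF2, CPSF4 and CPSF3, the last of them the endonuclease that cuts pre-mRNA, were 5.30-fold, 2.72-fold and 2.48-fold lower.

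Genes that untreated cells hardly expressed were examined by their place in the genome. Of 4092 genes below 0.1 CPM in untreated cells, 394 (9.63%) reached at least 1 CPM in each treated library, called on here. The share was highest for genes that lie downstream of an active gene on the same strand, active meaning at least 10 CPM in untreated cells. Where the nearest such gene ended 0 to 5 kb before the silent gene, 33 of 108 were on (30.6%). At 5 to 20 kb, 84 of 262 were on (32.1%). At 20 to 100 kb it was 126 of 771 (16.3%), and beyond 100 kb, or with no such gene, 132 of 2823 (4.68%).

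An active gene in other places went with lower shares. With an active gene upstream on the opposite strand, 8% were on at 0 to 5 kb and 12.2% at 5 to 20 kb. With an active gene downstream on the same strand, the shares were 16% and 9.31% at those distances, and downstream on the opposite strand 17.2% and 13.6%. Within 20 kb the share was 31.6% for same-strand upstream, 10.6% for opposite-strand upstream and 11.3% for same-strand downstream neighbours. With silent meaning 0 counts in untreated cells these were 20.6%, 4.88% and 1.94%. No test was made, since neighbouring genes are not independent.

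**Figure D3:**
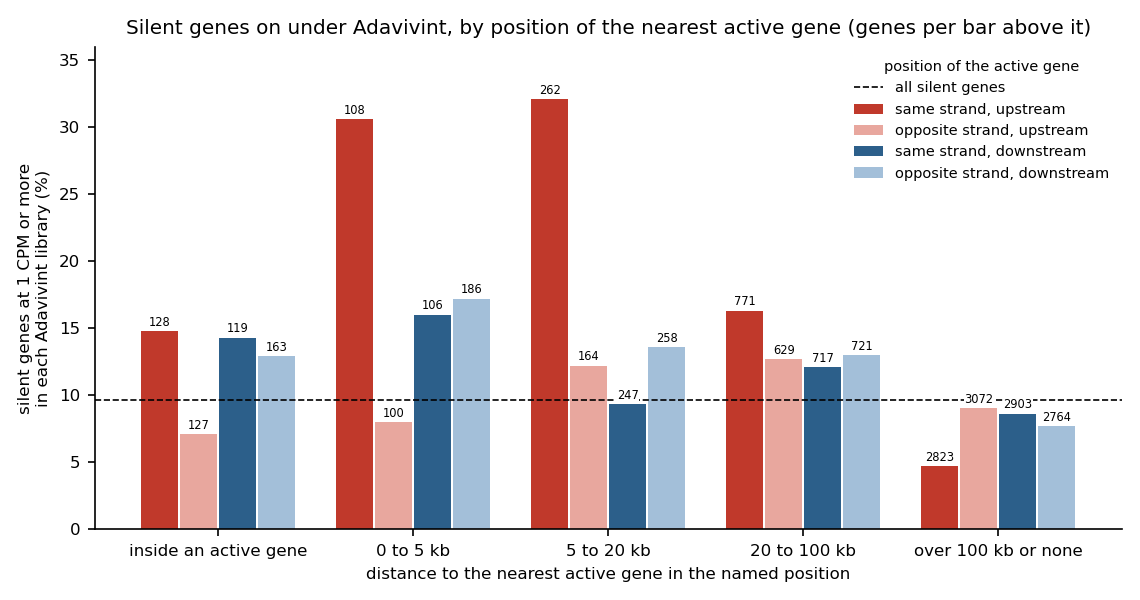
Share of genes below 0.1 CPM in untreated cells that reached at least 1 CPM in each treated library (vertical axis, percent), by distance to the nearest active gene (horizontal axis, kb) in 4 positions. One bin holds genes that lie inside an active gene. Numbers over bars are silent genes in the bin and the dashed line is the share of all 4092, 9.63%. The bars for same-strand upstream genes within 20 kb stand highest, at 30.6% and 32.1%.

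For the 15 genes with the largest increases, the nearest same-strand active gene upstream lay at 10.2 to 129 kb, for 5 of them within 20 kb and for 13 within 100 kb. Of all 394 genes that were on, 132 had no such gene within 100 kb, and of all 4092 silent genes 2823 had none. FBLN5 starts 18 kb past the end of TRIP11, which had a mean of 207 CPM in treated cells and 45.1 CPM in untreated cells. MYZAP starts 41.2 kb past CGNL1, at 179 CPM in treated cells and 15.8 CPM in untreated cells. PODN starts 10.3 kb past SCP2, at 138 CPM in both groups. Annotated readthrough loci, which join the exons of neighbouring genes into 1 transcript, were more often higher than lower: 47 of 90 tested were higher, 11 were lower and the median log2 change was 1.18. Of all genes 43.4% were higher and 41.3% lower. The levels of these loci are not given here, and all tested genes between 0.1 and 1 CPM in untreated cells had a median of 1.05. The part of level in the readthrough median was not tested. Reads of such loci can also belong to either parent gene, and the counting rule was not given in the sources used here.

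Exon number, counted in the annotated transcript with the greatest spliced length, went with the change. That transcript need not be the main one of a gene. B2M and SRSF9, which are spliced, were counted with 1 exon, so the single-exon class below also holds some spliced genes. Single-exon genes had a median log2 change of 0.69 (656 genes), genes of 2 to 3 exons 0.25 (2345 genes), and genes of 21 or more exons -0.20 (1877 genes). Single-exon genes also had lower levels, with a median of 4.27 CPM in untreated cells, against 42.6 CPM for genes of 21 or more exons. Among genes between 10 and 100 CPM in untreated cells, the median was 0.07 for single-exon genes (212) and -0.30 for genes of 21 or more exons (784). Gene length within that range of levels made less difference, with medians of -0.25 below 10 kb, -0.19 at 10 to 50 kb and -0.18 above 50 kb.

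Replication-dependent histone genes, single-exon genes whose transcripts normally end in a stem-loop without a poly(A) tail, stood at the top of the lists. Of 44 tested, 42 were higher, all 42 at least 2-fold, none were lower, and the median log2 change was 4.22. Members near 0 counts in untreated cells passed the count filter through the treated libraries, so they could hardly come out lower. Summed over the list, they had 557, 578 and 556 CPM in treated cells, against 30.6, 30.7 and 33 CPM in untreated cells. The other 11 of 55 in the table were not tested, with 0 to 23 counts in each group. These went both ways: H4C1 had 6 counts in treated and 23 in untreated cells, and H3C11 had 16 and 6. H2BC12, the most abundant and chosen after its values were seen, had 130, 139 and 130 CPM in treated cells, against 4.48, 4.35 and 3.99 CPM in untreated cells (31.1-fold higher, edgeR adjusted p = 1.32e-13). H2BC14 had 674 counts in treated cells and 9 counts in untreated cells, and H2AC8 had 340 counts in treated cells and 6 counts in untreated cells. Histone genes share sequence and sit in clusters, so reads may be split among them. Poly(A) selection was not given in the sources used here.

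**Figure D4:**
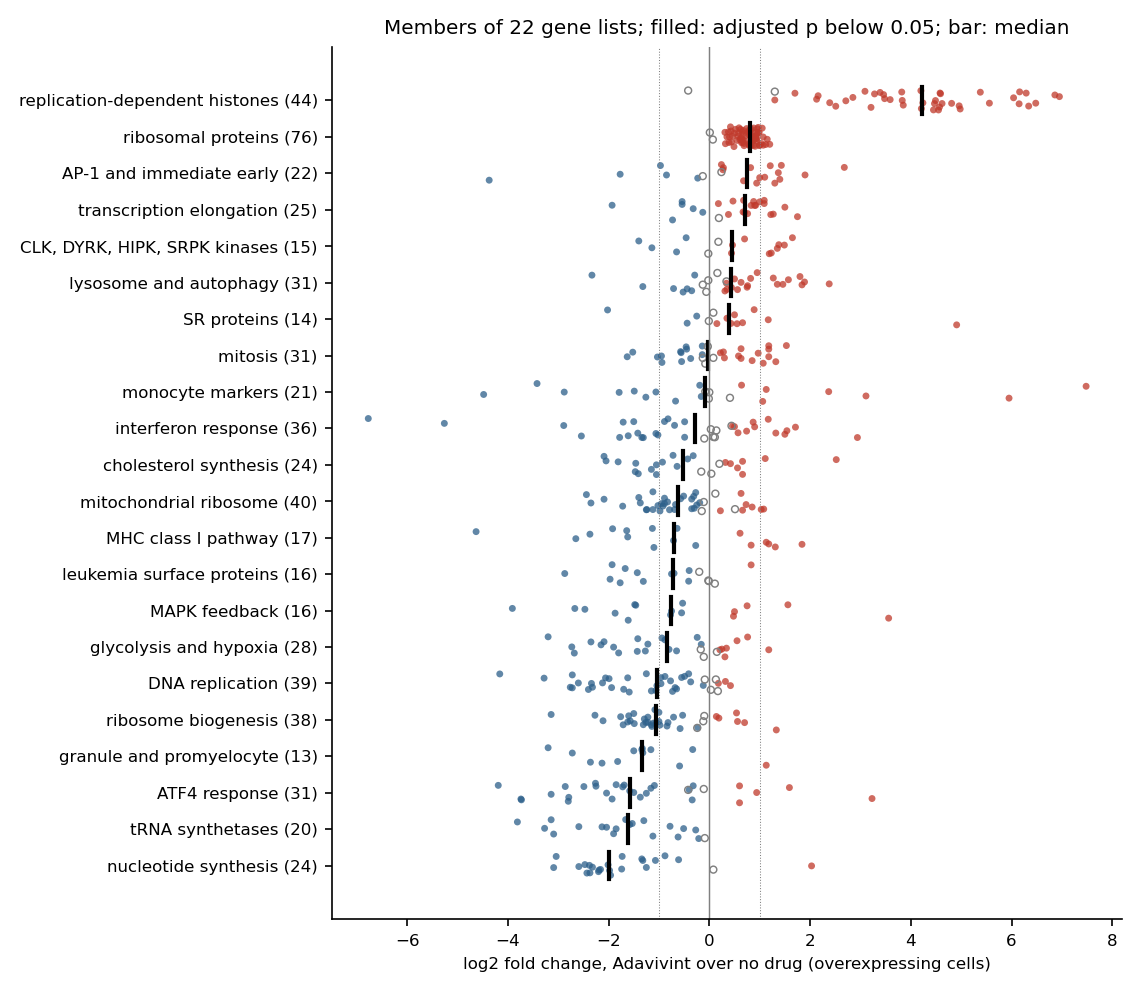
Log2 fold change of each tested member of 22 gene lists, treated over untreated overexpressing cells (horizontal axis), with the number tested in parentheses. Filled points passed the test, black bars are medians and dotted lines mark 2-fold changes. Replication-dependent histones have a median of 4.22 and nucleotide synthesis genes one of -1.99.

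Cytosolic ribosomal protein genes rose together by a small amount. Of 76 tested, 74 were higher, 7 of them at least 2-fold, none were lower, and the median log2 change was 0.80. Summed over the list, they had 135429, 145235 and 132668 CPM in treated cells, against 83996, 84337 and 81571 CPM in untreated cells. RPL22 had 1852, 2016 and 1880 CPM in treated cells, against 811, 859 and 840 CPM in untreated cells, 2.29-fold higher. RPS19, which is mutated in Diamond-Blackfan anaemia, was 2.17-fold higher. Genes for making ribosomes moved the other way: of 38 tested, 29 were lower, 20 at least 2-fold, and 6 were higher, with a median of -1.06. NOC3L, needed for large-subunit assembly, had 5.41, 7.29 and 6.89 CPM in treated cells, against 52.1, 60.1 and 60.3 CPM in untreated cells. TCOF1, a nucleolar factor for ribosomal DNA transcription, had 21, 21.8 and 21.3 CPM in treated cells, against 106, 102 and 101 CPM in untreated cells. NOP10 was an exception, 2.51-fold higher.

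Of 44 translation factors, 17 were higher and 18 lower, and the median of -0.04 turned to 0.02 with DESeq2 size factors. EIF4B and EIF3F were 2.37-fold and 2.81-fold higher. EIF2S3, the gamma subunit of the initiation factor eIF2, was 4.62-fold lower, and EIF4EBP1, a repressor of cap-dependent initiation, was 4.90-fold lower. Mitochondrial ribosomal proteins were mostly lower, with 29 of 40 lower, 7 higher and a median of -0.62.

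Aminoacyl-tRNA synthetases, which load amino acids onto tRNAs, fell: 19 of 20 were lower, 14 at least 2-fold, and none were higher, with a median log2 change of -1.62. VARS1 had 12.1, 13 and 12.7 CPM in treated cells, against 186, 174 and 169 CPM in untreated cells, 14-fold lower. AARS1 had 41.8, 49.9 and 42.9 CPM in treated cells, against 404, 397 and 385 CPM in untreated cells, 8.81-fold lower (edgeR adjusted p = 9.01e-13).

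Several synthetases are targets of ATF4, the transcription factor of the amino acid response, and the ATF4 list as a whole was lower. Of 31 tested, 24 were lower, 21 at least 2-fold, and 5 were higher, with a median of -1.58. PSAT1, of serine synthesis, had 31.2, 38.6 and 36.5 CPM in treated cells, against 446, 489 and 485 CPM in untreated cells, 13.4-fold lower. ALDH18A1, of proline synthesis, was 13.3-fold lower, and ALDH1L2, a mitochondrial folate enzyme, was 18.3-fold lower. The 5 members that rose included stress regulators: DDIT3, which encodes CHOP, had 45.3, 47.8 and 42.9 CPM in treated cells, against 15.3, 14.5 and 15.4 CPM in untreated cells. NUPR1 was 9.41-fold higher and ATF3 was 1.92-fold higher. ATF4 itself had 378, 366 and 350 CPM in treated cells, against 466, 459 and 441 CPM in untreated cells, 1.25-fold lower.

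The ATF4 site of the amino acid response has the core TGATGNAA, and 4 of 25 ATF4-list promoters in the table held it in the 250 bases before the start: ATF3, CHAC1, ASNS and AARS1, with log2 changes of 0.94, -2.25, -1.72 and -3.14. Searched on both strands, it was in 3.19% of 27305 promoters and in 1.61% of 12139 promoters of tested genes. It was in 2.1% of promoters of genes at least 2-fold higher and in 1.72% of those at least 2-fold lower. Promoters of ASNS and AARS1, which were both lower, are shown from RefSeq (GRCh38.p14), as ASNS holds the best-known site of this kind. ASNS, asparagine synthetase, had 32.7, 33.8 and 35.5 CPM in treated cells, against 108, 114 and 112 CPM in untreated cells. Capitals mark the match, 68 bases before the start of ASNS (chr7:97872409-97872658, minus strand) and, reversed, 187 bases before that of AARS1 (chr16:70289507-70289756, minus strand). A match is a description of the letters and not of binding.
ASNS: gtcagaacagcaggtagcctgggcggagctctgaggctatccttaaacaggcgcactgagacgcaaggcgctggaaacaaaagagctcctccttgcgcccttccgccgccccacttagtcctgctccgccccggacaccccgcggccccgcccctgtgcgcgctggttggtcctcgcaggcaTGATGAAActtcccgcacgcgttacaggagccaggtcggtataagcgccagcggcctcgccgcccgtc
AARS1: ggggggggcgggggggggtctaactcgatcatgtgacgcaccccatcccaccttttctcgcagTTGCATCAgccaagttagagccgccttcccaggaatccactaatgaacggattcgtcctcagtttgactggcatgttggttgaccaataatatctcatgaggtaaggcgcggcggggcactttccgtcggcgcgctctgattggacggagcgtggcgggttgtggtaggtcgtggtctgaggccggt

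Nucleotide synthesis genes fell with the lowest median of all lists, -1.99. Of 24 tested, 22 were lower, 20 at least 2-fold, and 1 was higher. TYMS, thymidylate synthase, had 26.5, 29.9 and 41.7 CPM in treated cells, against 267, 282 and 287 CPM in untreated cells, 8.50-fold lower. PAICS, of purine synthesis, had 35.3, 40.1 and 46.1 CPM in treated cells, against 319, 340 and 340 CPM in untreated cells. CTPS1, of CTP synthesis, was 6.02-fold lower. The member that rose was RRM2B, the p53-regulated subunit of ribonucleotide reductase, with 189, 202 and 197 CPM in treated cells, against 41.3, 50.9 and 51.9 CPM in untreated cells.

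Of 28 genes of glycolysis and the hypoxia response, 18 were lower, 12 at least 2-fold, and 7 were higher, with a median of -0.84. PDK1, the kinase that restrains pyruvate dehydrogenase, had 111, 116 and 120 CPM in treated cells, against 987, 1096 and 1107 CPM in untreated cells, 9.20-fold lower. TPI1 and PFKL were 6.63-fold and 6.41-fold lower. PKM, pyruvate kinase, was 1.27-fold higher. TXNIP, which limits glucose uptake and antagonises thioredoxin, had 468, 495 and 483 CPM in treated cells, against 246, 259 and 257 CPM in untreated cells. Of 24 cholesterol genes, 14 were lower and 7 higher, with a median of -0.53. FDPS, of isoprenoid synthesis, had 62.1, 71.9 and 65 CPM in treated cells, against 283, 274 and 265 CPM in untreated cells. HSD17B7 was 5.72-fold higher.

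DNA replication genes fell. Of 39 tested, 32 were lower, 20 at least 2-fold, and 3 were higher, with a median log2 change of -1.04. PRIM1, the catalytic subunit of primase, had 3.84, 4.39 and 5 CPM in treated cells, against 76.2, 80.5 and 80.1 CPM in untreated cells, 17.8-fold lower. CDC45 was 9.75-fold lower. MCM6, of the replicative helicase, had 77.9, 88.1 and 85 CPM in treated cells, against 552, 570 and 573 CPM in untreated cells. ORC1, of the origin recognition complex, was 1.34-fold higher.

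Mitosis genes did not move as a group, with 14 of 31 higher and 13 lower, and a median of -0.03 that turned to 0.03 with DESeq2 size factors. MKI67, the proliferation marker Ki-67, had 1874, 1827 and 1849 CPM in treated cells, against 653, 649 and 626 CPM in untreated cells, 2.88-fold higher. CENPF and CENPE, kinetochore proteins, were 2.50-fold and 2.27-fold higher. CDC25C, CCNA2 and MAD2L1 were 3.10-fold, 2.86-fold and 2.04-fold lower. Of 13 cyclin-dependent kinase inhibitors, D cyclins and their kinases, 4 were higher and 6 lower. CDKN2B and CDKN1B, which encode p15 and p27, were 3.57-fold and 2.14-fold higher, and CDK4 was 2.16-fold lower.

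Among 5 pro-survival BCL2 genes, BCL2 had the largest change, with 17, 14.7 and 14.8 CPM in treated cells, against 150, 170 and 169 CPM in untreated cells (10.5-fold lower, log2 -3.40, SE 0.07, edgeR adjusted p = 9e-14). MCL1 had 308, 314 and 331 CPM in treated cells, against 191, 204 and 206 CPM in untreated cells, 1.58-fold higher, and BCL2L1 was 1.73-fold higher. Of 9 pro-death genes, BMF, BAD and BCL2L11 were higher by 2.61-fold, 1.76-fold and 1.70-fold, BIK and PMAIP1 were 5.03-fold and 2.26-fold lower, and 4 did not pass. Of 23 p53 targets, 8 were higher, 7 were lower and 8 did not pass. PHLDA3 and TIGAR were 13.6-fold and 4.35-fold higher, and SESN2 was 3.22-fold lower. CDKN1A, which encodes p21 and is named here after its values were seen, had 4.45, 5.16 and 3.68 CPM in treated cells, against 4.77, 4.66 and 4.21 CPM in untreated cells (edgeR adjusted p = 0.84).

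Myeloid transcription factors split, with 9 of 26 higher and 14 lower. CEBPE, of late granulocyte development, and KLF6 were 3.39-fold and 3.53-fold higher. RUNX1, a regulator of blood stem cells, had 49.4, 48.7 and 47.2 CPM in treated cells, against 186, 202 and 211 CPM in untreated cells, 4.13-fold lower. EGR1 and ERG were 20.6-fold and 4.71-fold lower.

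Monocyte markers moved both ways, with 7 of 21 higher and 10 lower. CD14, the co-receptor for lipopolysaccharide, had 21.5, 21.8 and 21.2 CPM in treated cells, against 0.487, 0.295 and 0.285 CPM in untreated cells (61.9-fold higher, log2 5.95, SE 0.22, edgeR adjusted p = 7.96e-12). CCR2, the receptor for the chemokine CCL2, had 1.44, 1.48 and 1.43 CPM in treated cells, against 31.1, 34.2 and 32 CPM in untreated cells, 22.3-fold lower. MARCO and ITGAX, which encodes CD11c, were 10.7-fold and 7.36-fold lower, and CD80 was 8.60-fold higher. MRC1 had 267 counts in treated cells and 2 counts in untreated cells.

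Granule genes of promyelocytes fell, with 12 of 13 lower and a median of -1.34. PRTN3, proteinase 3, had 11.5, 11.1 and 12.9 CPM in treated cells, against 115, 105 and 106 CPM in untreated cells, 9.20-fold lower. LYZ, lysozyme, was the member that rose, with 611, 638 and 657 CPM in treated cells, against 276, 298 and 297 CPM in untreated cells. Of 16 leukaemia surface genes, 11 were lower and 1 was higher. FLT3, a receptor kinase often mutated in acute myeloid leukaemia, had 4.99, 5.58 and 6.09 CPM in treated cells, against 37.7, 40.1 and 44.1 CPM in untreated cells. CD33, an antibody target in that disease and a receptor of S100A9, had 20.1, 23.5 and 23 CPM in treated cells, against 90.2, 87.6 and 83 CPM in untreated cells.

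Of 15 receptors and adaptors of S100A8 and S100A9, 4 were higher and 8 lower. TRAF6, a ubiquitin ligase downstream of TLR4, had 88.5, 86.6 and 90 CPM in treated cells, against 15.8, 17.1 and 18 CPM in untreated cells, 5.20-fold higher. EMB, embigin, had 44.7, 48.4 and 48.2 CPM in treated cells, against 483, 555 and 572 CPM in untreated cells, 11.4-fold lower. Of 14 genes of the HOXA and MEIS1 program of MLL-rearranged leukaemia, 8 were higher and 5 lower. HOXA4 and HOXA5 were 5.06-fold and 2.61-fold higher, and MEIS1 was 1.53-fold lower. Among 20 epigenetic regulators, TET2 and TET3 were 3.55-fold and 2.46-fold higher, and DNMT3B and CBX7 were 4.05-fold and 5.53-fold lower.

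Of 29 NF-kB targets and pathway genes, 11 were higher, 8 were lower and 10 did not pass. PTGS2, cyclooxygenase 2, had 6.67, 7.21 and 7.61 CPM in treated cells, against 0.778, 0.885 and 0.887 CPM in untreated cells. ICAM1 was 2.61-fold higher and CCL2 was 8.32-fold lower. Of 36 interferon response genes, 12 were higher and 18 lower, 13 of them at least 2-fold. XAF1 had 4.32, 6.1 and 4.18 CPM in treated cells, against 34.3, 37.8 and 36 CPM in untreated cells, and CXCL11 was 5.81-fold lower. IFI27 and ISG15 were 7.68-fold and 2.91-fold higher.

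Antigen presentation genes diverged. HLA-E had 505, 520 and 500 CPM in treated cells, against 208, 205 and 201 CPM in untreated cells, and B2M, the light chain of class I molecules, was 2.26-fold higher. PSMB9, an immunoproteasome subunit, had 0.907, 0.986 and 0.795 CPM in treated cells, against 24.1, 20.9 and 21.3 CPM in untreated cells, 24.7-fold lower, and TAP2, a subunit of the peptide transporter, was 6.26-fold lower. All 17 tested class I genes passed the test, 6 higher and 11 lower, where 84.7% of all genes passed. In class II, CIITA, the master regulator, had 2.45, 2.1 and 2.32 CPM in treated cells, against 20.3, 21.8 and 23 CPM in untreated cells, 9.46-fold lower. HLA-DMB and HLA-DRA were 3.16-fold and 2.07-fold higher. Of 15 inflammasome genes, NLRP3, CASP1 and IL18 were 3.84-fold, 5.02-fold and 6.13-fold lower, and MEFV, which encodes pyrin, was 3.41-fold higher.

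Of 22 AP-1 and immediate early genes, 15 were higher and 5 lower, with a median of 0.75. FOS had 11.3, 10.1 and 11.4 CPM in treated cells, against 38.9, 35.8 and 37 CPM in untreated cells, 3.40-fold lower, while FOSB and BTG2 were 2.69-fold and 3.74-fold higher. Of 16 genes induced by MAPK signalling that feed back on it, 11 were lower and 5 higher. DUSP6, an ERK phosphatase, had 3.01, 3.63 and 3.07 CPM in treated cells, against 47.1, 49.9 and 48.9 CPM in untreated cells, 15-fold lower. SPRED3, an inhibitor of RAF activation, had 16.7, 15.1 and 16 CPM in treated cells, against 1.17, 1.38 and 1.49 CPM in untreated cells. Of 24 integrin and adhesion genes, 16 were lower and 7 higher. ITGA4, a subunit of VLA-4, had 90.2, 91 and 104 CPM in treated cells, against 705, 793 and 790 CPM in untreated cells, and CD82 was 27.9-fold lower.

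Of 20 heat shock genes, 7 were higher and 10 lower. HSPA1B had 57.7, 61 and 56.8 CPM in treated cells, against 16.8, 16.5 and 15.7 CPM in untreated cells. HSPA1A was 3.26-fold higher, but both genes are nearly identical and share reads. BAG3, their co-chaperone, was 2.46-fold higher. HSPD1, the mitochondrial chaperonin, had 279, 310 and 314 CPM in treated cells, against 920, 978 and 996 CPM in untreated cells. In the unfolded protein response, 10 of 21 were higher and 9 lower, with HSPA5 and HERPUD1 2.39-fold and 2.54-fold higher and XBP1 and HYOU1 3.32-fold and 3.78-fold lower. Among 20 NRF2 genes, NFE2L2 itself was 2.32-fold higher, and PRDX1 and GCLM were 4.34-fold and 2.71-fold lower.

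Lysosome and autophagy genes were more often higher, 19 of 31, with 7 lower and a median of 0.44. NEU1, the lysosomal sialidase, had 321, 299 and 311 CPM in treated cells, against 63.2, 57.5 and 58 CPM in untreated cells (5.22-fold higher, edgeR adjusted p = 7.61e-12). ATP6V0D1, a subunit of the proton pump, had 112, 115 and 104 CPM in treated cells, against 31.3, 28.3 and 29.9 CPM in untreated cells. TFE3, a transcription factor of lysosomal genes, was 3.58-fold higher, and GLB1, lysosomal beta-galactosidase, was 5.01-fold lower.

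Lysosomal promoters often carry CACGTG, the core read by TFEB, TFE3 and also by MYC. It was in 6 of 21 lysosome-list promoters in the table (LAMP1, CTSA, CTSD, NEU1, MCOLN1 and ATP6V0D1), in 6.49% of all 27305 promoters and in 8.63% of promoters of tested genes. It was in 7.54% of promoters of genes at least 2-fold higher and in 8.66% of those at least 2-fold lower. The promoters of NEU1 (chr6:31862822-31863071, minus strand) and ATP6V0D1 (chr16:67481158-67481407, minus strand) are shown from RefSeq (GRCh38.p14) as the 2 with the largest increases among these 6. NEU1 and ATP6V0D1 had log2 changes of 2.38 and 1.89, and the others had 0.63 (MCOLN1), 0.16 (CTSA), -0.02 (CTSD) and -0.13 (LAMP1). The match, in capitals, lies 126 bases before the start of NEU1 and 59 bases before that of ATP6V0D1.
NEU1: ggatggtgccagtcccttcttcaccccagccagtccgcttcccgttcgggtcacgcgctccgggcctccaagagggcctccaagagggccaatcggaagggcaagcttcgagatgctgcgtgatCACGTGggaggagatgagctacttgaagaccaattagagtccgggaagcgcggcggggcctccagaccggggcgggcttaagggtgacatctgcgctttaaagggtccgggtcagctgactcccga
ATP6V0D1: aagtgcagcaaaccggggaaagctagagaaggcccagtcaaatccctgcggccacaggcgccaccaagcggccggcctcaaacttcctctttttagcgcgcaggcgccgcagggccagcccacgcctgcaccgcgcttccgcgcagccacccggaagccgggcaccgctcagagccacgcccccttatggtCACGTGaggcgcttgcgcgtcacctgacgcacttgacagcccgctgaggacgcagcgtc

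Of 73 nuclear genes of oxidative phosphorylation, 27 were higher and 38 lower, with a median of -0.21. UQCRB, of complex III, had 733, 789 and 728 CPM in treated cells, against 223, 242 and 238 CPM in untreated cells. ATP5MC1, of ATP synthase, had 5.68, 6.28 and 6.09 CPM in treated cells, against 49.5, 48.9 and 49.3 CPM in untreated cells, 8.17-fold lower. Of 13 genes encoded in mitochondrial DNA, 7 were higher and none lower, and MT-CYB was 1.80-fold higher. Of 31 proteasome genes, 12 were higher and 14 lower, with PSMD4 and PSMD8 4.72-fold and 3.96-fold lower.

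Genes that handle cytarabine, the nucleoside used to treat acute myeloid leukaemia, were more often lower than higher. SLC29A1, the transporter that brings the drug into cells, had 4.24, 4.31 and 4.57 CPM in treated cells, against 103, 96.1 and 93.9 CPM in untreated cells (22.3-fold lower, log2 -4.48, SE 0.10, edgeR adjusted p = 6.83e-14). DCK, which activates the drug, had 136, 143 and 143 CPM in treated cells, against 87.5, 106 and 109 CPM in untreated cells, 1.39-fold higher. CDA, which inactivates it, was 1.51-fold higher. Of 13 tested, 3 were higher and 8 lower. Among 12 ABC transporters, ABCC2 and ABCA1 were 7.95-fold and 3.05-fold higher, and ABCC4, an exporter of nucleotides and some nucleoside drugs, was 9.48-fold lower.

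The response with the S100A9 vector was then set against that with the empty vector, by a test of the difference between the log2 changes. In the overexpressing cells 13048 genes passed, and 13143 passed in empty-vector cells. They shared 12038, which is 92.3% of the first and 91.6% of the second, and 11880 of these moved the same way. The log2 changes across genes had a Pearson's r of 0.942 and a Spearman's rho of 0.957. These are descriptions across genes, which are not independent, and the comparisons share no library. The difference itself passed for 2968 genes (19.3%), with the change higher in overexpressing cells for 1239 (8.04%) and lower for 1729 (11.2%). With library totals in place of scaled sizes these were 961 and 2379. The difference was at least 1 on the log2 scale for 303 genes, 126 higher and 177 lower. For 158 genes that passed in both cell groups with opposite directions, the difference passed in all 158. Genes chosen for passing in opposite directions will nearly always pass a test of the difference, so this pass was no separate evidence.

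**Figure D5:**
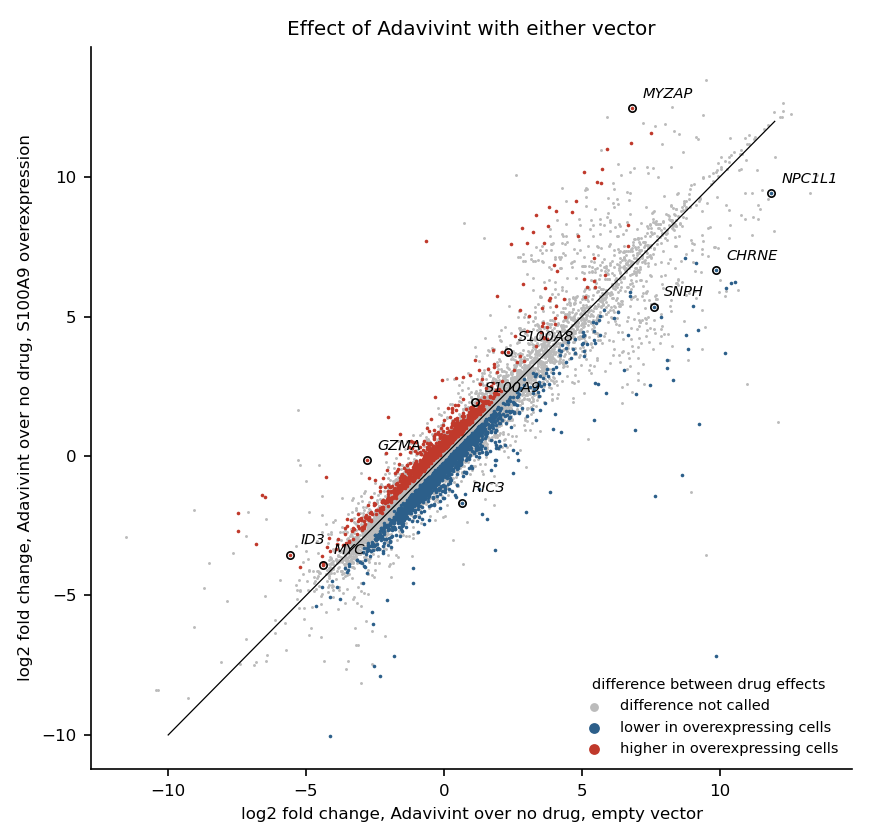
Fitted log2 fold change with Adavivint in S100A9-overexpressing cells (vertical axis) against that in empty-vector cells (horizontal axis), 1 point per gene, with the line of equal change. Coloured points are the 2968 genes whose difference passed the test, red where the change was higher in overexpressing cells (1239) and blue where it was lower (1729).

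Several gene groups held many members with a difference. Such a difference can come from the untreated levels of the 2 vectors as well as from the treated ones. In the ATF4 list the change was lower in overexpressing cells for 21 of 31 and higher for none, with medians of -1.58 in overexpressing cells and -0.78 in empty-vector cells. For ASNS, asparagine synthetase, the difference was -1.36 on the log2 scale (edgeR adjusted p = 8.8e-06). PSAT1 had means of 35.4 CPM in treated overexpressing and 32.5 CPM in treated empty-vector cells, against 473 and 290 CPM without Adavivint. DDIT3, which rose, had 45.3 and 42.1 CPM, against 15.1 and 7.92 CPM, in the same order. The part of untreated levels in the list as a whole was not tested. Aminoacyl-tRNA synthetases, of which AARS1 is also in the ATF4 list, had 12 lower and 1 higher of 20. DNA replication genes had 16 lower and 2 higher of 39. In the NF-kB list 10 of 29 were lower and 5 higher, with medians of 0.16 in overexpressing cells and 0.93 in empty-vector cells.

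Other groups had changes that were higher in overexpressing cells. In the heat shock list this held for 14 of 20 and the reverse for none, with medians of -0.03 in overexpressing cells and -0.67 in empty-vector cells. HSPA1A and HSPA1B differed by 1.56 and 1.44 on the log2 scale (edgeR adjusted p = 5.54e-05 and 0.000262). Their treated levels were close with both vectors, and their untreated levels were not. HSPA1A had means of 44.3 CPM in treated overexpressing and 43 CPM in treated empty-vector cells, against 13.6 and 38.8 CPM without Adavivint. HSPA1B had 58.5 and 56.6 CPM, against 16.3 and 43 CPM, in the same order. Its untreated empty-vector libraries spread over 53.8, 39.4 and 35.8 CPM. In the mitosis list 20 of 31 were higher and none lower. Nuclear oxidative phosphorylation genes had 27 higher and 1 lower of 73, and cholesterol genes 14 higher and 1 lower of 24. MT-CYB, encoded in mitochondrial DNA, was 1.80-fold higher in overexpressing cells. In empty-vector cells its log2 change was -0.22, a difference of 1.07 (edgeR adjusted p = 0.000424). Its means were 3364 CPM in treated overexpressing and 2569 CPM in treated empty-vector cells, against 1867 and 2986 CPM without Adavivint. The untreated empty-vector libraries spread over 2422, 3489 and 3048 CPM. Of the 44 histone genes the difference passed for 9, 8 higher and 1 lower.

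Among single genes, GZMA, a granule protease, had 2.21, 2.23 and 1.68 CPM in treated overexpressing cells, against 2.45, 2.4 and 1.9 CPM in untreated overexpressing cells. In empty-vector cells it had 1.47, 1.45 and 1.03 CPM with Adavivint, against 11.3, 8.46 and 7.57 CPM without it. The difference was 2.65 (SE 0.28, edgeR adjusted p = 0.000185). ID3, an inhibitor of basic helix-loop-helix factors, fell in both, by 3.54 in overexpressing cells and by 5.59 in empty-vector cells. RIC3 fell to 1.6, 1.4 and 2.55 CPM in treated overexpressing cells, against 5.96, 6.34 and 5.51 CPM in untreated overexpressing cells. In empty-vector cells RIC3 had 2.8, 3.67 and 2.16 CPM with Adavivint, against 1.23, 1.97 and 2.34 CPM without it. All of these differences were kept in each of the 12 fits that left out 1 library. MYC fell by 3.90 in overexpressing cells and by 4.37 in empty-vector cells, a difference of 0.47 (edgeR adjusted p = 0.0304).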

How the data were processed

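RNA-seq of total RNA isolated with TRIzol was deposited by the authors as 1 table of raw read counts per gene, with 18670 genes and 18 libraries. Reads were aligned with HISAT2 2.0.4, per the submitters' processing notes. Genome build, annotation, counting tool and strand settings were all not given in the sources used here, so overlapping, antisense, readthrough and near-identical genes are uncertain. All columns matched a sample (columns with no sample: 0). Symbols came from name tables (18114 genes with a symbol) and positions from GENCODE 29 on GRCh38 (18482 genes found).

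The deposited counts of the 12 THP-1 libraries (4 groups of 3) entered 1 edgeR 4.0.16 quasi-likelihood fit in R 4.3.3 (limma 3.58.1), with TMM scaling, filterByExpr (15403 genes tested) and Benjamini-Hochberg adjustment at 0.05. Contrasts were Adavivint against none in overexpressing cells, the same in empty-vector cells, and their difference. A fold against a group at 0 counts used a floor of 3 counts over the group. Gene lists were described by counts and medians, with no set test. Members and lists were chosen with earlier results of these data known. Named genes were S100A9, S100A8, the target kinases and Wnt readouts, the 15 largest changes in each direction with a mean of at least 5 CPM, up to 3 called list members in each direction with at least 1 CPM, the 5 largest differences in each direction and the most abundant genes. The largest changes and differences also had to pass the test and carry a symbol that was not a clone, locus, readthrough or open-reading-frame name. For the largest changes, the 6 libraries also could not overlap. SPI1, CSF1R, ATF4, ASNS, H2BC12 and CDKN1A were named after their values were seen. Some items that the rule names are not reported here. Replicates differed by more than sampling noise (chi-square per degree of freedom 7.33 to 37.9), and each library was counted as a replicate. Separate preparations of 1 culture can also differ by more than sampling noise, so these values cannot tell whether the cultures were separate. On simulated counts for 13999 genes, edgeR recovered 95 of 100 2-fold and 99 of 100 4-fold changes in this comparison, with 9 unchanged genes called. Only those genes were changed, all at 1 CPM or more without drug and as many up as down. In the data 84.7% of genes passed, so the simulation cannot tell how scaling or calls behave under so broad a change. Alternatives were DESeq2 1.42.0, its size factors, library totals, other filters, the 6 libraries alone, a replicate block, and leaving out each library.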

Additional observations from a re-analysis of the deposited data

Results flagged for a closer look

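The response to Adavivint differed between the S100A9 vector and the empty vector for 2968 genes by the test of the difference in edgeR. S100A8 was among them, with a difference of 1.42 on the log2 scale (SE 0.39, edgeR adjusted p = 0.0221). In empty-vector cells it had 4.01, 4.07 and 4.31 CPM with Adavivint, against 1.08, 0.794 and 0.581 CPM without it. The difference passed in 9 of 12 fits without 1 library and reached an adjusted p of 0.0599 in the others.

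Positive differences, where the log2 change was higher in overexpressing cells, included GZMA at 2.65 and ID3 at 2.04, called in all 12 such fits. GZMA had log2 changes of -0.14 in overexpressing cells and -2.79 in empty-vector cells, and ID3 had -3.54 and -5.59 in those cells. MYZAP, GDA and RPH3A had fitted differences of 5.65, 4.06 and 5.1, which depend on how a count of 0 is treated and are no bounds. Each had 0 counts in untreated overexpressing cells and 16, 6 and 13 counts in untreated empty-vector cells. RPH3A was called in all 12 fits without 1 library, MYZAP in 9 and GDA in 1.

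Negative differences, where the log2 change was lower in overexpressing cells, included CHRNE at -3.19, MROH7 at -2.55, NPC1L1 at -2.42, RIC3 at -2.32 and SNPH at -2.25. RIC3 had log2 changes of -1.68 in overexpressing cells and 0.64 in empty-vector cells. CHRNE and RIC3 were called in all 12 fits without 1 library, MROH7 in 10, SNPH in 7 and NPC1L1 in 5. Their differences ranged over -6.30 to -2.59 for CHRNE, -5.90 to -1.81 for NPC1L1 and -3.93 to -1.74 for SNPH in these fits. In untreated empty-vector cells CHRNE had 3 counts and SNPH 6 counts, so their sizes depend on how near-0 counts are treated. NPC1L1 had 110, 98.2 and 108 CPM in treated overexpressing cells, against 30 counts in all untreated overexpressing libraries. In empty-vector cells it had 91.2, 98.8 and 111 CPM with Adavivint and 4 counts without it. MROH7 had 2.59, 3.14 and 1.52 CPM in treated overexpressing cells, against 1.3, 3.96 and 1.38 CPM in untreated overexpressing cells, and its groups overlapped.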

How the results depend on the processing

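Across the alternatives the counts of higher and lower genes in overexpressing cells stayed within 1.5 times their values, at 5950 to 7062 higher and 5913 to 6659 lower, or 3129 to 4323 and 3147 to 3744 at 2-fold or more. For the difference between vectors, fits without 1 library gave 797 to 1713 higher and 1088 to 2011 lower genes. The lowest counts came without replicate 2 of the untreated overexpressing cells, and 816 higher came without replicate 3 of that group. The 6 libraries alone cannot give this difference. Replicate numbers did not pair treated with untreated overexpressing cells by the set rule, with correlations of their deviations of 0.243, 0.081 and 0.158. With a replicate block there were 6654 higher and 6303 lower genes, 3892 and 3524 at 2-fold or more, and 1028 and 1449 for the difference. GDA and NPC1L1 then lost the call of their difference.

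Of 337 called genes named by rule, none changed sign and 2 lost the call under some setting. Genes that were never called changed sign. CLK2 was 0.04 with DESeq2 size factors and with DESeq2, 0.01 with a filter of 1 CPM and -0.06 to 0.02 in fits without 1 library. In such fits AXIN2 ranged over -0.28 to 0.15 and MROH7 over -0.16 to 0.84. MT-ND4 was 0.04 with DESeq2 size factors and with DESeq2 and 0.01 with a filter of 1 CPM, and -0.05 to 0.0 in fits without 1 library. MT-CO2 was -0.05 with library totals and -0.03 to 0.06 in fits without 1 library. The S100A9 difference passed with DESeq2 size factors (adjusted p = 0.0495) and with a filter of 1 CPM (0.0481).

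Alternatives for silent genes were chosen after seeing the data. With at least 30 CPM for an active gene, the shares on within 20 kb were 35.8% for same-strand upstream, 11.3% for opposite-strand upstream and 13.2% for same-strand downstream neighbours. With 0.5 CPM as the level for on, they were 39.7%, 18.2% and 15.6%. The stromal marker list had no tested member with a filter of 1 CPM. Depth limits genes such as AXIN2, with 54 counts in treated cells and 95 in untreated cells.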
